A study of Macaca fascicularis with 9 samples.

Results

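Cluster 16 of a single-nucleus data set from the cynomolgus monkey thalamus held 118 of 79994 nuclei, and the authors named its cell type unknown. Its members were chosen by the deposited cluster number and by that missing name, with no other filter. Genes of the motile cilium such as CFAP299, SPAG17 and DNAH11 were among their 30 leading genes against all other nuclei, and all 9 measured markers of ependymal cells were higher in them, so the cluster is called ependymal-like here. The study compared 2 routes into the brain for an antisense oligonucleotide (ASO) that targets MALAT1, a long noncoding RNA retained in the nucleus. In the ASO group, 3 female cynomolgus monkeys received 1 intrathecal dose of 4 mg of the MALAT1 ASO. In the OTV group, 3 females received OTV:MALAT1, in which such an oligonucleotide is carried by a protein that binds the transferrin receptor, in 4 biweekly intravenous doses of 30 mpk. In the saline group, 3 females received 4 biweekly intravenous doses of saline. Tissue was frozen 2 weeks after the final dose in all 9 animals, and the ASO group differs from the other 2 in route and schedule as well as in the compound. The labels used here state no ages.

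Ependymal cells form the epithelium that lines the ventricles of the brain, and the third ventricle borders the medial thalamus. Each mature cell carries a tuft of motile cilia that moves cerebrospinal fluid along the ventricle wall. A motile cilium is built on a core of microtubules, the axoneme, whose outer and inner dynein arms are motor complexes that slide the microtubule doublets. Radial spokes, a central pair apparatus and the nexin-dynein regulatory complex govern that motion, and intraflagellar transport carries building material along the shaft. Ependymal cells derive from radial glia, as astrocytes do, and share part of the astrocyte gene set.

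The nuclei of cluster 16 held 1842 to 13419 UMIs (unique molecules counted), with a median of 6349.5, against a median of 6007 in all other nuclei. They had a median of 2813 detected features, against 2446 in the others. Every nucleus in the data set was called a singlet in the deposited table. The deposited doublet score had a median of 0.00160 in the cluster and 0.000829 in the other nuclei, and its highest value in the cluster, 0.197, was in OTV replicate 2. By animal the median in the cluster was 0.00130 in ASO replicate 3, 0.0179 in saline replicate 1, 0.0117 in saline replicate 3, 0.000890 in saline replicate 2 and 0.159 in OTV replicate 2. In the whole data set 760 cell barcodes occurred in more than 1 library, and none of the nuclei that carried them was in cluster 16. Levels below are CPM, the UMIs of a gene per 1000000 UMIs, summed over the nuclei of an animal. Means over animals use the 3 animals with at least 5 nuclei of the cluster: ASO replicate 3, saline replicate 1 and saline replicate 3.

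The ependymal-like nuclei were very unevenly spread over the animals. ASO replicate 3 held 75 of them, or 0.780% of its 9619 nuclei (95% exact binomial interval 0.614 to 0.976%, which covers counting error only). Saline replicate 3 held 14 of 2956 nuclei, or 0.474% (0.259 to 0.793%), and saline replicate 1 held 25 of 10860, or 0.230% (0.149 to 0.340%). Thus 3 animals supplied nearly the whole cluster, and they belong to 2 treatment groups. The order of the 2 saline animals depended on the denominator: of nuclei outside the oligodendrocyte class, the cluster made up 2.95% in ASO replicate 3, 1.11% in saline replicate 1 and 0.744% in saline replicate 3. OTV replicate 2 held 2 of 3809 nuclei, or 0.0525% (0.00636 to 0.190%), and saline replicate 2 held 2 of 11480, or 0.0174% (0.00211 to 0.0629%). The cluster had no nucleus in ASO replicates 1 and 2 or in OTV replicates 1 and 3. The upper ends of their exact binomial intervals were 0.0308% and 0.0310% in the 2 ASO animals and 0.0379% and 0.0483% in the 2 OTV animals. The limit of 3 counts used below for a count of 0 bounds the upper side only and is lower, at 0.0250%, 0.0252%, 0.0308% and 0.0393%.

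**Figure D1:**
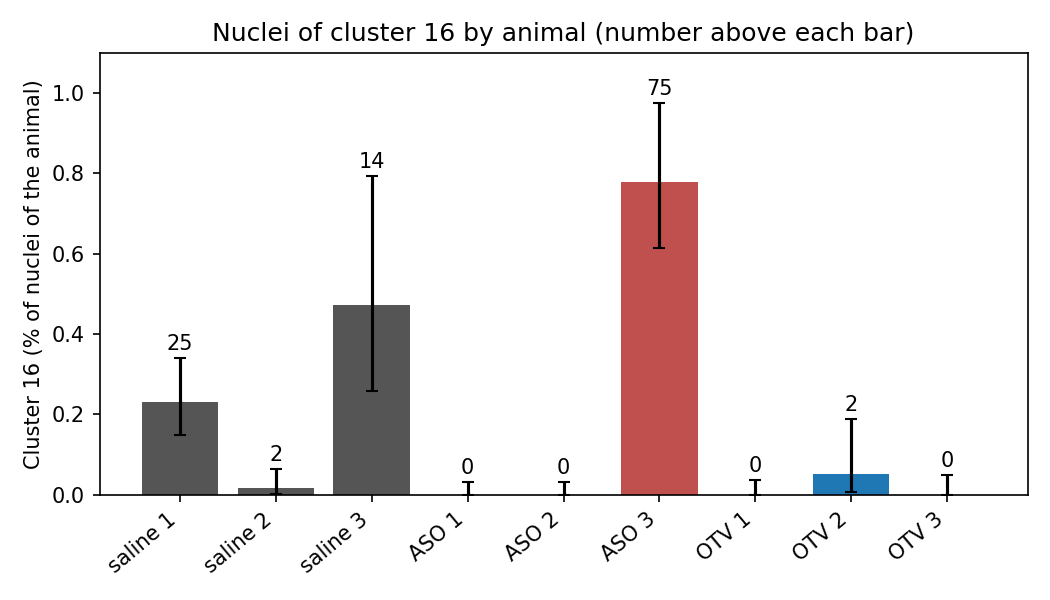
Nuclei of cluster 16 as a percentage of all nuclei of each animal (y axis), for the 9 animals (x axis), with the number of nuclei above each bar and 95% exact binomial intervals as error bars. ASO replicate 3 stands at 0.780%, saline replicates 3 and 1 at 0.474% and 0.230%, and the other animals at or below 0.0525%.

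Group means did not separate beyond the spread between animals. The share was 0.240% ± 0.228 (SD, n = 3) in saline animals, 0.260% ± 0.450 (SD, n = 3) in ASO animals and 0.0175% ± 0.0303 (SD, n = 3) in OTV animals. A two-sided exact permutation test over the 280 partitions of the animals gave p = 0.636, where 0.00357 is the smallest p possible without ties. Because 4 animals share a value of 0, ties put that smallest p out of reach here. OTV minus saline was -0.223 percentage points (exact permutation p = 0.2, adjusted p = 0.6 over 3 pairs), ASO minus saline was 0.0195 points (exact p = 1.0, adjusted p = 1.0) and OTV minus ASO was -0.242 points (exact p = 1.0, adjusted p = 1.0). A pair of groups cannot give a p below 0.1 in this design, and for OTV minus ASO the ties at 0 raise that floor. The ASO mean rested on replicate 3: without it, ASO minus saline was -0.240 points (exact p = 0.2) and OTV minus ASO was 0.0175 points (exact p = 1.0). Without saline replicate 2, ASO minus saline also turned negative, at -0.0920 points (exact p = 1.0). OTV minus saline was -0.106 points without saline replicate 3 (exact p = 0.2) and -0.334 points without saline replicate 2 (exact p = 0.1). Of nuclei outside the oligodendrocyte class, ASO minus saline was 0.339 points (exact p = 1.0).

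By count, the animals with most ependymal-like nuclei were also those with most nuclei named neurons. Neurons numbered 467 of 9619 nuclei in ASO replicate 3, 527 of 2956 in saline replicate 3 and 364 of 10860 in saline replicate 1. In the other 6 animals they numbered 17 to 112, with the 112 among 3809 nuclei of OTV replicate 2. As a share of nuclei, saline replicate 1 and OTV replicate 2 thus lay close together, so the gap in counts partly follows from library size. The part of the sampled tissue in the spread of the ependymal-like nuclei was not tested.

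Ependymal markers were high in all 3 animals with enough nuclei. All 9 measured markers of the list of 10 were at least 1 higher on the log2 scale than in all other nuclei, where 11.7% of the 29128 features were. The fold is the log2 ratio of mean CPM plus 1, and its SD is over the 3 animals. Its median over the 9 markers was 6.26, and over all features it was -0.11. The summed level of the list was between 13381 and 14892 CPM in the cluster and between 110 and 135 CPM in the other nuclei of the same animals. Since clusters were drawn from these same genes, this comparison describes the cluster and carries no test. FOXJ1, the other marker of the list and a master regulator of motile cilia, was not analysed here.

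CFAP299, a cilia and flagella associated protein, was at 3413 CPM in ASO replicate 3, 3719 in saline replicate 1 and 4088 in saline replicate 3, against a mean of 6.42 in other nuclei (log2 fold 8.98, SD 0.54). DNAH9, an outer arm dynein heavy chain, was at 3127, 3382 and 3039 CPM in the same order, against 40.4 (log2 fold 6.26, SD 0.58). DNAH11, another outer arm heavy chain, was at 1478, 2338 and 1880 CPM, against 5.20 (log2 fold 8.26, SD 0.80). In these and in the markers below, the lowest animal of the cluster lay far above the other nuclei of every animal. ADGB, the globin-like protein androglobin, was at 1709, 2053 and 1551 CPM, against 2.43. SPAG17, a protein of the central pair, was at 1105, 1089 and 1034 CPM, against 2.47. CFAP43 was at 2102, 1916 and 1942 CPM, against 58.7. RSPH1, a radial spoke head protein, was at 332, 302 and 345 CPM, against 6.75. Only CCDC153 and TMEM212 of the list were seldom detected: CCDC153 had a UMI in 40.7% of the nuclei and TMEM212 in 9.32%, yet both had log2 folds of 5.98 and 4.07.

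The signal was present in nearly every nucleus and was not made by a few. Among the 118 nuclei, 115 had UMIs of at least 6 of the 9 markers and 107 had UMIs of at least 7. The markers took 1.36% of the UMIs of the median nucleus.

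The 30 leading genes, named by the largest log2 fold among features with a symbol and a UMI in at least 25% of the nuclei, had log2 folds that ran from 7.28 to 9.25 with a median of 7.71. In levels summed per animal, the lowest of the 3 animals exceeded the highest level in other nuclei by 59.6 to 841 times. The 30 were picked for this fold, so the gap follows from the choice and carries no test. Which genes led depended on the pseudocount of 1 CPM: with 0.1 CPM 17 of the 30 were kept, and with 10 CPM also 17. ZBBX led, at 1352, 1460 and 1441 CPM against 1.33 (log2 fold 9.25, SD 0.15), and was detected in 98.3% of the nuclei. Next came ADGB, CFAP299, ARMC3 (8.32), TTC29 (8.32), SPAG17, DNAH11 and DNAI3 (8.16). FAM81B, FAM183A, CFAP54, DNAH12, LRRIQ1, CCDC60, RIBC2, CFAP73, LRRC71, SPAG6, ODAD2, KIAA2012, MALRD1, SPATA17, FRMPD2, ANKUB1, DNAH5 and LRRC36 lay between 8.14 and 7.28. PI15 (7.70), ADCYAP1 (7.53), CD36 (7.41) and SLC47A2 (7.40), also among the 30, encode secreted or membrane proteins with well-known roles away from cilia, a grouping made after their values were seen.

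Detection was also compared at equal depth, which neither removes nor measures stray UMIs from free RNA in droplets. The genes shown, CFAP299 and ZBBX, were picked for their fold over other nuclei, so their detection describes the cluster and carries no test. Each nucleus was thinned to 1000 UMIs, and the same 3 animals supplied 948 nuclei of the main astrocyte cluster and 16766 oligodendrocytes. Median depths before thinning were 7849 UMIs in the astrocytes and 5392 in the oligodendrocytes. CFAP299 was then detected in 89.8% of the ependymal-like nuclei, 1.16% of the astrocytes and 0.644% of the oligodendrocytes, and unthinned in 98.3%, 6.65% and 3.05%. ZBBX was detected in 71.2%, 0% and 0.0716% after thinning, and unthinned in 98.3%, 0.422% and 0.346%.

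Genes of the axoneme were also grouped by symbol family, a grouping made after the values had been seen. Among 13 dynein heavy chains 10 were higher, where 11.7% of all features were, with a median log2 fold of 6.68 over the family. DNAH12, an inner arm chain, was at 3329, 3804 and 3743 CPM against 13.8 (log2 fold 7.94, SD 0.41). DNAH6, also of an inner arm, was at 2822, 1745 and 1707 CPM against 16.7 (log2 fold 6.88, SD 0.60). DNAH5, of the outer arm, was at 640, 633 and 517 CPM against 2.82 (log2 fold 7.29, SD 0.85). The 3 others stood apart from the family: DNAH17 (log2 fold 0.39) and DNAH8 (0.35), both known from the sperm tail, and DNAH14 (-0.43).

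Parts that complete the dynein arms were high as well. All 7 dynein intermediate and light chains were higher (median log2 fold 4.35, beside 11.7% of all features higher), led by DNAI3 (8.16) and DNAI1 (6.72), the latter an outer arm intermediate chain. The 3 measured subunits of the docking complex that anchors outer arms were higher, ODAD2 (7.39) above ODAD4 (5.27) and ODAD3 (4.22). Of 8 cytoplasmic factors that assemble dynein arms 7 were higher, from DNAAF9 (1.26) to DNAAF11 (6.56), while DNAAF2 stood at 0.98.

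Structures that govern the beat followed the same direction. All 6 radial spoke head genes were higher (median 3.32, beside 11.7% of all features higher), although RSPH6A rested on a single nucleus. The 4 genes of the nexin-dynein regulatory complex were higher, from GAS8 (2.75) to DRC7 (6.70). HYDIN, a giant central pair protein, was at 2738, 2338 and 2913 CPM against 31.0 (log2 fold 6.38, SD 0.23). Among 34 cilia and flagella associated proteins 30 were higher, and CFAP36, CFAP97, CFAP410 and CFAP97D1 lay between -0.03 and 0.75. Of 5 tektins, which strengthen the microtubule doublets, 4 were higher (median 2.23).

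Transport genes are used by nearly all cells with any cilium. All 14 intraflagellar transport genes were higher with a median log2 fold of 2.58, from IFT43 (1.00) to IFT122 (3.60), where 11.7% of all features were higher and 18.2% lower. Of 4 Bardet-Biedl syndrome genes, whose products move membrane proteins of cilia, BBS4 (1.97) and BBS9 (1.50) were higher and BBS7 (-0.56) and BBS10 (-0.51) were between the limits. The 9 sperm-associated antigens, a family only by name, had 5 higher and 1 lower member.

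**Figure D2:**
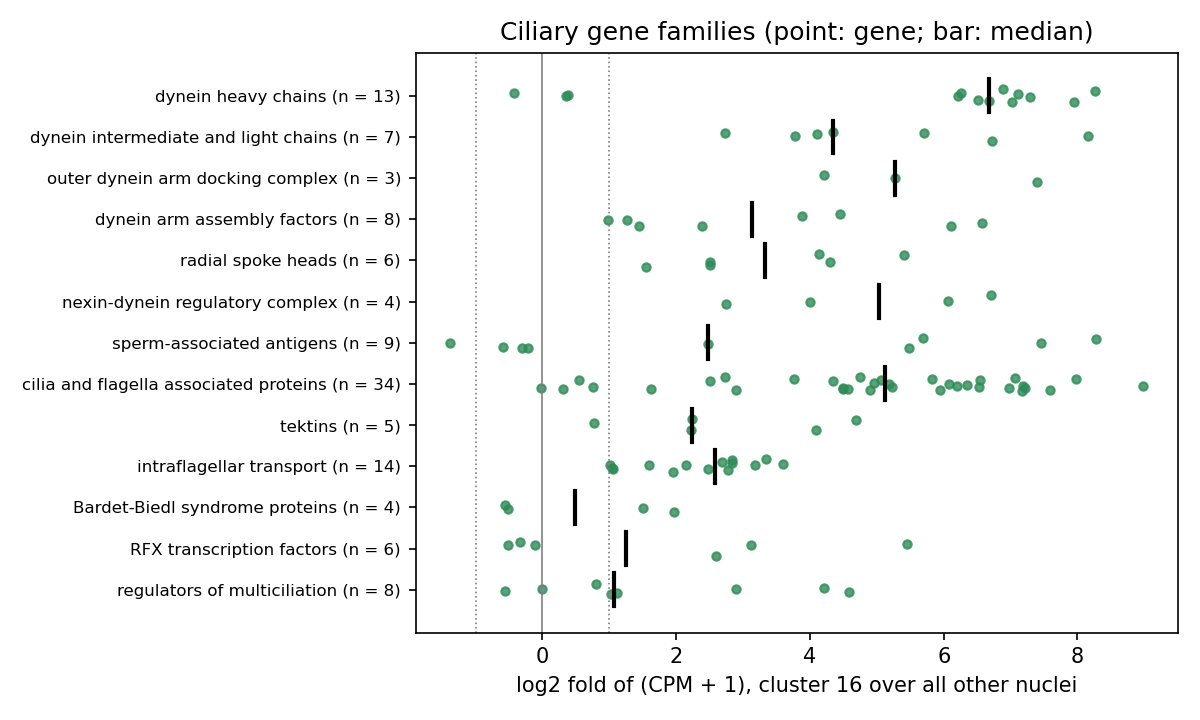
Log2 fold of CPM plus 1 in cluster 16 over all other nuclei (x axis) for the genes of 13 ciliary families (rows, with the number of genes), where each point is a gene, the black bar is the family median and dotted lines mark -1 and 1. Dynein heavy chains centre on 6.68, intraflagellar transport genes on 2.58 and Bardet-Biedl syndrome genes on 0.49.

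Transcription factors of ciliated cells were detected too. RFX2, which activates ciliary genes, was at 1264, 1055 and 1284 CPM in ASO replicate 3, saline replicate 1 and saline replicate 3, had a UMI in all 118 nuclei and stood at 26.5 CPM in other nuclei. The main astrocytes had 233, 188 and 291 CPM of RFX2 in the same animals, so both glial groups held it and the ependymal-like nuclei held more in each animal. RFX3, its relative, was at 1225, 1734 and 1582 CPM against 249. Of 8 genes that start or drive multiciliation 5 were higher, where 11.7% of all features were, among them MYB (log2 fold 4.58), GMNC (4.22) and TP73 (2.90). Their levels were low, with GMNC in 10.2% of the nuclei and MYB in 19.5%. MCIDAS, which acts early in multiciliated precursors, had no UMI in any nucleus of the 3 animals, and MKI67, a marker of dividing cells, had none in the cluster.

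The cluster most like it over all 29128 features was the main astrocyte cluster (Pearson's r = 0.88). The r is between mean profiles of log2 CPM plus 1 across features, which are not independent. Next came the main oligodendrocyte precursor cluster (0.84), then the neurons and the minor astrocyte cluster, nearly level (0.83 each). The neurons had a median of 14015 UMIs and the minor astrocyte cluster 1916.5. Depth was not matched, so the order of these last clusters is not read. All profiles come from the same 3 libraries. Against other nuclei, 6 of 10 astrocyte markers were higher and 3 lower, where 11.7% and 18.2% of all features were. Set against the main astrocytes of the same animals, all of the 10 markers but RYR3 had a lower mean level, by unequal amounts. RYR3 (log2 fold 0.75) was higher in saline replicates 1 and 3 and lower in ASO replicate 3. ADGRV1 (-2.37), ALDH1L1 (-1.04) and GJA1 (-0.76) were lower on average, and the other markers are given below.

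AQP4, the water channel of astrocyte endfeet and ependyma, was at 272, 468 and 376 CPM in the ependymal-like nuclei of ASO replicate 3, saline replicate 1 and saline replicate 3, and at 399, 821 and 475 CPM in astrocytes. GFAP, the glial filament protein, was at 128, 103 and 141 CPM, against 236, 403 and 124 CPM in astrocytes. SLC1A3, the glutamate transporter GLAST, was at 1530, 1529 and 1284 CPM, against 3099, 2321 and 3699 CPM. The log2 folds over astrocytes were -0.60 for AQP4, -1.03 for GFAP and -1.07 for SLC1A3, and within each animal AQP4 and SLC1A3 were lower in the ependymal-like nuclei, while GFAP was lower in 2 of 3 animals. SLC1A2, the main astrocyte glutamate transporter GLT-1, was at 97.2, 456 and 157 CPM, against 13163, 8232 and 14029 CPM in astrocytes (log2 fold -5.63). ALDOC, a glycolytic enzyme of astrocytes, was at 7.78, 11.4 and 0 CPM, against 93.2, 149 and 97.1 CPM (log2 fold -3.95). SLC4A4, a bicarbonate cotransporter, was at 152, 108 and 313 CPM, against 1846, 1924 and 1790 CPM (log2 fold -3.27). SLC1A2, ALDOC and SLC4A4 were lower than in the astrocytes in each of the 3 animals.

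**Figure D3:**
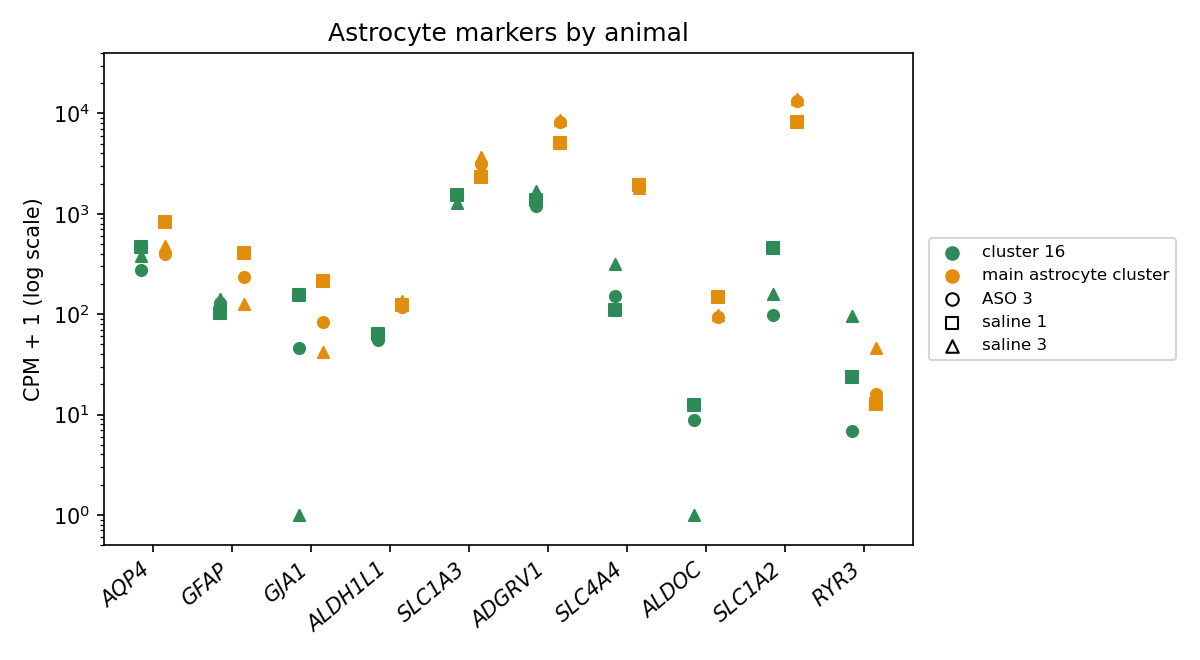
CPM plus 1 on a log axis (y axis) of the 10 astrocyte markers (x axis) in cluster 16 (green) and in the main astrocyte cluster (orange), with a symbol for each of the 3 animals. AQP4 lies at 272 to 468 CPM in cluster 16 and at 399 to 821 CPM in astrocytes, whereas SLC1A2 lies at 97.2 to 456 CPM in cluster 16 and at 8232 to 14029 CPM in astrocytes.

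Genes at the other end of that comparison included several with no UMI in the 3 animals' ependymal-like nuclei. NID1, a basement membrane protein, and CYP1D1 were at 0 there, and at means of 138 and 147 CPM in the main astrocytes. ALDH1A1, which makes retinoic acid, was at 9.72, 22.8 and 0 CPM, against 1240, 1309 and 1888 CPM in astrocytes. WIF1, a secreted Wnt inhibitor, was at 3.89, 0 and 0 CPM, against 329, 60.1 and 428 CPM. The remaining named genes of this direction, SLC24A3, LUZP2, OAF, MMD2, TRPM3 and RP1, had log2 folds from -7.07 to -6.54. Against the precursor cluster the genes lowest in the ependymal-like nuclei were DSCAM (-9.22), SEZ6L, CA10, UST, GRIA4, VCAN, SLC22A3, LUZP2, TNR and CACNG4 (-7.44), among them proteoglycans and matrix proteins of precursors such as VCAN and TNR. Those highest over it were ADGB (9.74), CFAP54, ZBBX, ARMC3, CFAP299, LMNTD1, LRRIQ1, CCDC60, SPAG6 and TTC29 (8.59).

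Markers of oligodendrocytes, microglia, neurons and endothelial cells were mostly lower than in other nuclei, read against the 18.2% of all features that were lower and the 11.7% that were higher. All 9 oligodendrocyte markers were lower (median log2 fold -3.97), and 7 nuclei had none of their UMIs. All 8 microglial markers were lower, and 95 of the 118 nuclei had no UMI of any. Of 9 neuronal markers 7 were lower and none higher, and 65 nuclei had no UMI of any. A list for glutamatergic neurons instead had 4 of 8 genes higher and 3 lower, the transcription factors LEF1 (log2 fold 3.74), RORB (1.37) and TCF7L2 (1.28) among those higher, and SLC17A6, the vesicular glutamate transporter, at 0. The summed level of that list was 878 to 1237 CPM in the cluster and 463 to 1002 CPM in the other nuclei. Among 10 endothelial markers 7 were lower, and FLT1, CDH5, EMCN, ERG, ADGRL4 and EGFL7 were at 0. TEK, at 36.9, 39.9 and 62.7 CPM, was the endothelial marker that was higher.

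Choroid plexus epithelium, the other epithelium of the ventricles, shares some genes with ependyma. Of its 8 measured markers 4 were higher and 2 lower, where 11.7% and 18.2% of all features were, and KL and FOLR1 were at 0. TTR, the transthyretin gene and the most abundant transcript of choroid plexus, was at only 46.7, 22.8 and 78.3 CPM, against 17.5, 12.2 and 31.9 CPM in other nuclei. HTR2C, a serotonin receptor abundant in choroid plexus, was at 272, 337 and 533 CPM, against 2.56, 22.8 and 15.7 CPM. It was far from even across nuclei: 39 of 118 nuclei had a UMI, and 15 nuclei with at least 5 UMIs held 77.3% of the 233 UMIs. The highest nucleus had 26 UMIs, and such nuclei occurred in all 3 animals, with 10, 4 and 1 of them. After thinning to 1000 UMIs, HTR2C was detected in 14.4% of the ependymal-like nuclei, 0.105% of the main astrocytes and 0.197% of the oligodendrocytes, and unthinned in 33.1%, 1.27% and 1.15%.

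Some genes with roles in signalling and transport were high too, although fewer nuclei had a UMI of ADCYAP1 (68.6%) or CD36 (57.6%) than of the median leading gene (95.3%). ADCYAP1, which encodes the neuropeptide PACAP, was at 249, 245 and 360 CPM in ASO replicate 3, saline replicate 1 and saline replicate 3, against 0.541 CPM in other nuclei, and 81 of the 118 nuclei had a UMI. CD36, a scavenger receptor that takes up fatty acids, was at 226, 257 and 486 CPM, against 0.906, and 68 nuclei had a UMI. SLC47A2, an exporter of organic cations, was at 1038, 593 and 579 CPM, against 3.37. PI15, a secreted peptidase inhibitor, was at 286, 485 and 298 CPM, against 0.715. HEPH, a ferroxidase that works with iron export, was at 130, 177 and 110 CPM, against 18.1, and the main astrocytes of the same animals had 65.4, 90.4 and 62.0 CPM of HEPH. The other 4 genes were at or below 16.5 CPM in the main astrocytes of each animal. Each of these 5 genes was above the other nuclei in all 3 animals.

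Scattered members of mural and fibroblast lists were higher without the lists' defining genes, again beside 11.7% of all features higher and 18.2% lower. Of 10 fibroblast markers 4 were higher, with LAMA2, a laminin chain, at 245, 108 and 141 CPM against 9.81, while COL1A1, COL3A1, DCN and LUM were at 0. Of 9 pericyte markers 3 were higher and 3 lower. ABCC9, a potassium channel subunit, was at 64.2, 125 and 31.3 CPM against 2.42. RGS5, a regulator of G protein signalling, was at 97.2, 114 and 266 CPM against 20.0, while PDGFRB, the defining receptor of pericytes, had a UMI in 3.39% of the nuclei.

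Transcription factors known for regional patterning or neuronal identity were present in this glial-like cluster. MEIS2 was at 1316, 1300 and 1300 CPM in ASO replicate 3, saline replicate 1 and saline replicate 3, against 746, 428 and 835 CPM in the main astrocytes of these animals. FOXP2 was at 636, 878 and 611 CPM, against 131, 37.7 and 83.4 CPM in astrocytes. Both were higher than in astrocytes in each animal. TCF7L2, an effector of Wnt signalling that marks thalamic neurons, was at 733, 599 and 830 CPM, against 699, 686 and 718 CPM in astrocytes, and so higher in 2 of the 3 animals.

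The cluster was not uniform, and its 2 nuclei from saline replicate 2 carried far less of the ependymal profile. They held 11462 and 11679 UMIs, of which the 9 ependymal markers made up 0.148% and 0.0257% (17 and 3 UMIs), or 864 CPM over both, against 122 CPM in the other nuclei of that animal. In the other 116 nuclei the markers took between 0.679% and 1.96%. The 2 nuclei had no UMI of CFAP299, ADGB, ZBBX, MEIS2 or FOXP2. Other genes high in the cluster were present in them: RFX2 had 12 UMIs in both nuclei (519 CPM, against 28.8 CPM in the other nuclei of saline replicate 2), ADCYAP1 had 4 in both (173 against 0.996 CPM) and DNAH9 had 6 in 1 nucleus (259 against 23.5 CPM). Of the 10 astrocyte markers the 2 nuclei had 55 and 64 UMIs, or 0.480% and 0.548% of their UMIs. These shares lay inside the range of the other 116 nuclei, 0.0820% to 0.751%. LGI1, a secreted synaptic protein, was at 1037 CPM in them and at 286 CPM in the main astrocytes. DPP10, a potassium channel partner, had 288 UMIs in the pair, 237 of them in 1 nucleus. Their summed profile had its highest correlation with the main astrocytes (r = 0.69 across features), but all clusters lay close together, from 0.59 to 0.69. The minor astrocyte cluster and cluster 16 itself both stood at 0.66, and the main oligodendrocyte precursors at 0.65. The profiles were not matched for number of nuclei or depth, so this order does not identify the pair.

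Conversely, 9 nuclei outside the cluster carried ependymal markers at 0.5% of UMIs or more, a limit set after seeing the values. All 9 were in the cluster named neurons, 7 from ASO replicate 3 and 2 from saline replicate 3. They were shallow, with 1133 to 1684 UMIs against a median of 12648 in that cluster, and their markers took 0.787% to 1.56% of UMIs. They were picked for their ependymal markers, so only other lists add to this. Their neuronal markers summed to 233 CPM, or 3 UMIs, against 3521 CPM in the other nuclei of that cluster. Their oligodendrocyte markers summed to 1477 CPM, or 19 UMIs, against 427 CPM there and 235 to 883 CPM in cluster 16. Their astrocyte markers summed to 5286 CPM, or 68 UMIs, against 1921 CPM there and 3491 to 4283 CPM in cluster 16. A single nucleus of saline replicate 3, with the lowest ependymal share of the 9 (0.787%), held 26 of those 68 UMIs. Without it the astrocyte markers of the other 8 stood at 3583 CPM, inside the range of cluster 16, and their oligodendrocyte markers at 1450.4 CPM and neuronal markers at 171 CPM. With these 9 added and the pair from saline replicate 2 left out, the share was 0.852% in ASO replicate 3, 0.541% in saline replicate 3, 0.230% in saline replicate 1, 0.0525% in OTV replicate 2 and 0 in the other 5 animals. The exact permutation test over the 3 groups then gave p = 0.679.

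**Figure D4:**
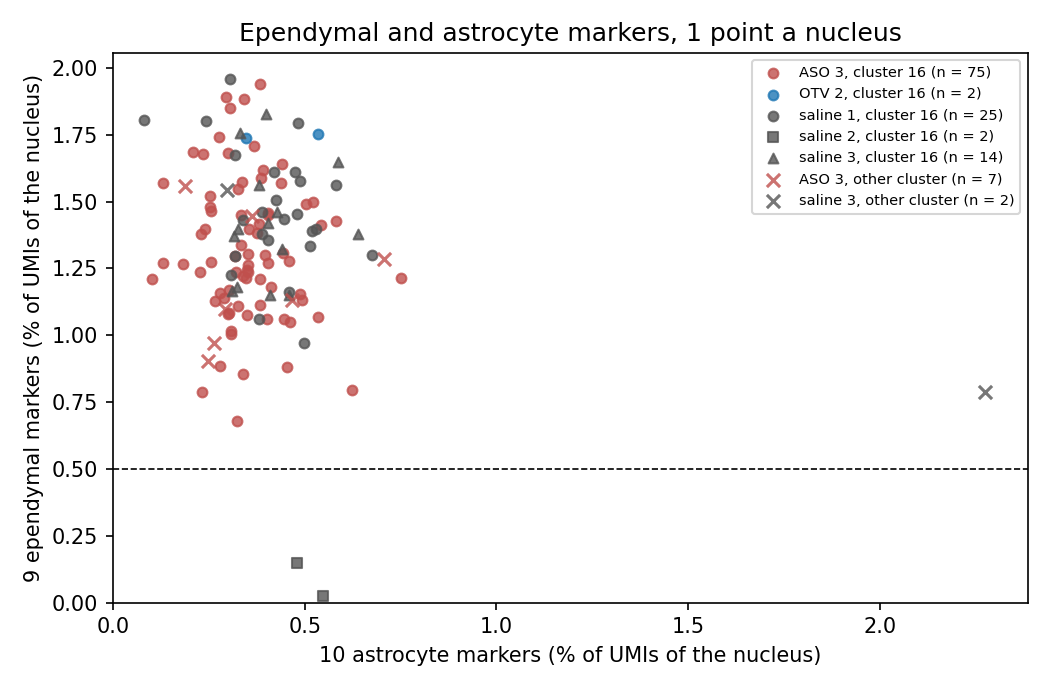
Share of UMIs on the 9 ependymal markers (y axis, percent) and on the 10 astrocyte markers (x axis, percent) in single nuclei, coloured by group, with crosses for the 9 nuclei of the neuron cluster and a dashed line at 0.5%. The 2 squares below the line are the nuclei of saline replicate 2, at 0.0257% and 0.148%, and the other nuclei of cluster 16 lie between 0.679% and 1.96%.

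MALAT1, the target of both oligonucleotides, could be compared in few animals. It took 5.06% of the UMIs of the ependymal-like nuclei in ASO replicate 3 (95% exact binomial interval 5.00 to 5.12%), 7.32% in saline replicate 1 (7.20 to 7.44%) and 5.48% in saline replicate 3 (5.30 to 5.66%). In all other nuclei of these animals it took 5.61%, 6.11% and 5.38%. The ASO animal was thus lowest of the 3 in the cluster, but only a little below saline replicate 3, and the 2 saline animals were farther apart than that. The 2 nuclei of OTV replicate 2 had 3.16% (2.80 to 3.55%), against 3.25% in its other nuclei. The pair of saline replicate 2, low in ependymal markers, had 8.42% (8.07 to 8.79%), against 6.36%.

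Single nuclei ranged from 2.87% to 7.47% in ASO replicate 3, from 5.34% to 10.1% in saline replicate 1 and from 3.94% to 9.03% in saline replicate 3, with medians of 5.08%, 7.30% and 5.21%. The ranges overlapped. The saline mean was 6.40% ± 1.30 (SD, n = 2), and the log2 ratio of the ASO animal to it was -0.34, or -0.11 without saline replicate 1 and -0.53 without saline replicate 3. No test was possible, since the ASO group had 1 animal with at least 5 nuclei and the OTV group had none. ASO replicate 3 also had the highest MALAT1 share of the ASO animals in other nuclei, where replicates 1 and 2 had 4.51% and 4.15%, and those animals gave no nucleus to the cluster. Relative to the other nuclei of the same animal, the log2 ratio of the cluster was -0.15 in ASO replicate 3, 0.26 in saline replicate 1 and 0.03 in saline replicate 3. Relative to the oligodendrocytes of the same animal it was -0.18, 0.19 and -0.24 in that order. Saline replicate 3 was then the lowest, so the order of the animals depended on the reference.

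**Figure D5:**
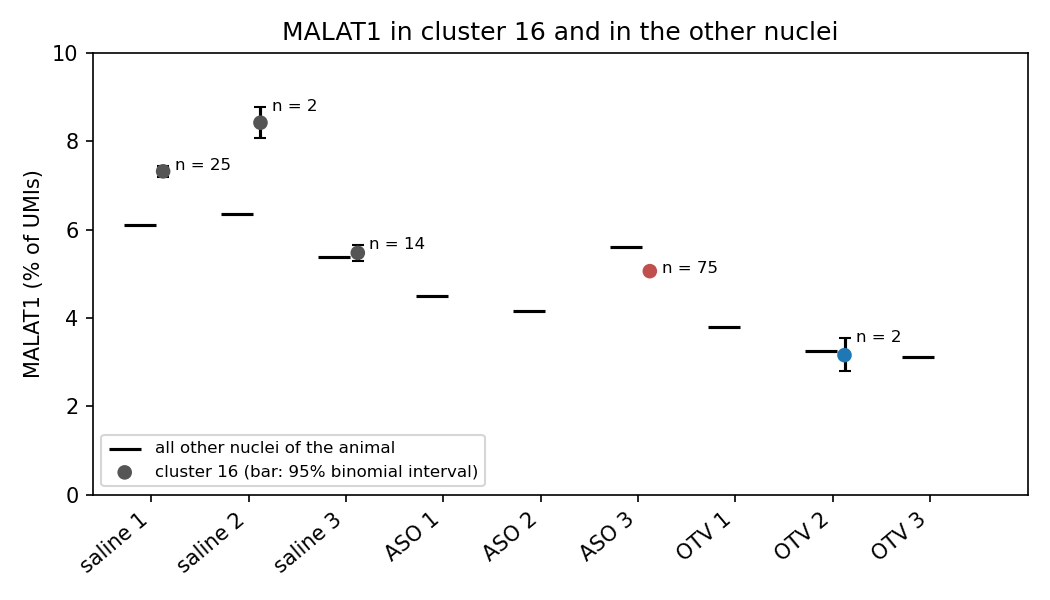
MALAT1 as a percentage of UMIs (y axis) in each animal (x axis), with a dash for all other nuclei and a point for cluster 16, its 95% exact binomial interval and its number of nuclei. The cluster lies at 5.06% in ASO replicate 3, 7.32% and 5.48% in saline replicates 1 and 3, and 3.16% in OTV replicate 2.

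TFRC, the transferrin receptor gene that OTV:MALAT1 relies on, was at the limit of detection in the ependymal-like nuclei. It had 7 UMIs in ASO replicate 3 (13.6 CPM, 95% exact Poisson interval 5.47 to 28.0, for counting error only), 1 in saline replicate 1 (5.70 CPM) and 1 in saline replicate 3 (15.7 CPM). Other nuclei of these animals had 20.0, 17.2 and 21.0 CPM, inside each of the cluster's intervals.

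Between animals, some genes differed by more than counting error. With 1 ASO animal the treatment and the animal cannot be told apart, and no test was run. The genes named are those with the largest differences between ASO replicate 3 and both saline animals by a rule of size set after the data had been seen. CACNA1A, a voltage-gated calcium channel subunit, had 121 UMIs in 49 of the 75 nuclei of ASO replicate 3 (235 CPM, exact Poisson interval 195 to 281). It had no UMI in the 25 and 14 nuclei of saline replicates 1 and 3, where a count of 0 allows 17.1 and 47.0 CPM, both below the interval of the ASO animal. In the other nuclei of the same animals CACNA1A was at 206, 140 and 405 CPM, an order that differs from that in the cluster. This comparison leaves out animals with fewer than 5 nuclei: the pair of saline replicate 2, low in ependymal markers, had 4 UMIs of CACNA1A in 1 nucleus, of 23141 UMIs in all (173 CPM), and the 2 nuclei of OTV replicate 2 had 3.

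SNX31 was at 222 CPM in ASO replicate 3, 22.8 (4 UMIs) in saline replicate 1 and 47.0 (3 UMIs) in saline replicate 3. ROBO2, an axon guidance receptor, was at 1237, 28.5 and 517 CPM in the same order. ACAD11, an enzyme of fatty acid oxidation, was at 187, 28.5 (5 UMIs) and 31.3 CPM (2 UMIs). PRKCQ, a protein kinase C, was at 75.8, 5.70 and 0 CPM. Its exact Poisson intervals in ASO replicate 3 (53.9 to 104 CPM) and saline replicate 3 (0 to 57.8 CPM) overlapped. In the other nuclei PRKCQ was at 287, 148 and 165 CPM, also highest in ASO replicate 3. In the other direction, TNC, the matrix protein tenascin C, was at 56.4, 257 and 204 CPM. NXPH1 was at 35.0, 143 and 392 CPM, GABRA2 at 25.3, 114 and 157 CPM, and CAMK1D at 93.3, 325 and 360 CPM. RTN4IP1 stood at 17.5, 108 and 110 CPM. By the rule that chose these genes, saline replicates 1 and 3 could not bracket the ASO value. The pair of saline replicate 2 had 173 CPM of PRKCQ, above the ASO animal, so with that animal the ASO value was bracketed. That bracket rests on only 4 UMIs, from nuclei low in ependymal markers. The main astrocytes held 1164, 526 and 673 CPM of PRKCQ in ASO replicate 3, saline replicate 1 and saline replicate 3. Of GABRA2 and RTN4IP1 the pair had no UMI, where a count of 0 allows 129.6 CPM, so their ASO values could not be placed.

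Several genes, ROBO2 again among them, set the saline animals as far apart from each other, which shows how much single animals varied. SDK1, an adhesion molecule, was at 1878 CPM in ASO replicate 3, 91.3 in saline replicate 1 and 1269 in saline replicate 3, and the 2 nuclei of OTV replicate 2 had 22 UMIs of it. ROBO2, named above as higher in ASO replicate 3 than in both saline animals, was at 28.5 CPM in saline replicate 1 and 517 CPM in saline replicate 3. PDE10A, a phosphodiesterase, was at 101, 68.4 and 940 CPM, and in other nuclei at 472, 184 and 2826 CPM, with the same order of animals. DPP10 was at 918, 536 and 4699 CPM. GJA1, the gap junction protein connexin 43, was at 44.7 and 154 CPM in the first 2 animals and had no UMI in saline replicate 3, where a count of 0 allows 47.0 CPM.

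Genes that earlier results of these data had called after ASO were looked up in the cluster. CD274, the immune checkpoint ligand PD-L1, had 32 UMIs in 18 nuclei of ASO replicate 3 (62.2 CPM, exact Poisson interval 42.6 to 87.8) and none in saline replicates 1 and 3. A count of 0 allows 17.1 CPM in saline replicate 1, below that interval, and 47.0 CPM in saline replicate 3, inside it, so a difference from saline replicate 3 was not detectable at this depth. In other nuclei CD274 was at 25.3, 4.07 and 4.32 CPM, also highest in ASO replicate 3. The feature ENSMFAG00000046424, which has no symbol in the files, was at 126 CPM (65 UMIs) in the cluster against none in the saline animals, and at 108 CPM in the other nuclei of ASO replicate 3 and 0.669 CPM in those of saline replicate 1. SGCB, a sarcoglycan, was at 107, 68.4 and 125 CPM in the cluster, where the saline animals lay on either side of the ASO animal. GIPR, an incretin receptor, had 3 UMIs in ASO replicate 3 (5.83 CPM), none in saline replicate 1 and 1 in saline replicate 3 (15.7 CPM), although in the other nuclei it was at 22.4 CPM in ASO replicate 3 and below 1 CPM in the others. CYTB, a mitochondrial gene, was at 0, 62.7 and 31.3 CPM. In the other nuclei CYTB was at 0.0181, 35.2 and 5.67 CPM, also lowest in ASO replicate 3. Of the 8 such features, the remaining 3 were ENSMFAG00000046427, with 18 UMIs in ASO replicate 3 and none in the saline animals, FAM186A, with 7, 1 and 0 UMIs, and ND5, with 0, 1 and 0 UMIs.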

How the data were processed

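Per the labels, libraries were made with 10x Genomics droplets from DAPI-sorted nuclei; per the submitters' processing notes, Cell Ranger 6.1.2 and Seurat 4 were used. Those notes name the build GRCh38.p13 although the features carry cynomolgus identifiers, so no coordinate is printed. The authors deposited raw UMI counts of 29128 features and a table of 79994 nuclei with total counts, cluster, cell type, percent of UMIs on ribosomal protein genes (median 0.156 in the cluster, 0.181 elsewhere) and a doublet score given as a fraction. No source used here names the doublet caller. Table totals equalled matrix sums in every nucleus.

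Counts were summed per animal, in Python 3.11.15 with numpy 2.4.6, pandas 2.3.3 and scipy 1.17.1. CPM is counts over all UMIs of those nuclei times 1000000. A pseudocount of 1 CPM was added before log2. Higher and lower mean a log2 fold of at least 1 or at most -1. The leading genes were the 30 of largest fold with a UMI in at least 25% of nuclei. Against each of the 2 most alike clusters, 10 genes each way were named. Genes set apart between animals needed at least 30 UMIs and a 2-fold gap between animals, with a pseudocount of 20 CPM, and 5 were named each way. There were 27 marker and 15 pathway lists and 13 symbol families. Intervals and limits for a count of 0 (3 counts) cover counting error only. The limit of 3 counts bounds the upper side only, and lies below the upper end of the two-sided exact interval of a count of 0.

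The members and lists were chosen with earlier results of these data known. A planned fit of all genes between groups and planned tests of MALAT1 needed 2 animals a group with enough nuclei (10 and 5) and could not be run. The labels give separate animals, so each test is over animals. Alternatives were another denominator, scale, pseudocount, share filter, reference nuclei and weighting, nuclei without the highest doublet scores, thinning to 1000 UMIs and leaving out each animal.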

Additional observations from a re-analysis of the deposited data

How the results depend on the processing

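A pair of groups cannot give a p below 0.1, so p values of the pairs say nothing of stability. On the scale of log odds, ASO minus saline turned negative (-1.74, exact p = 0.4). Leaving out an animal at a time, the exact p ran from 0.2 to 1.0 for ASO minus saline, from 0.4 to 1.0 for OTV minus ASO, from 0.1 to 0.3 for OTV minus saline and from 0.107 to 0.786 for the 3 groups. ASO minus saline turned negative without ASO replicate 3 and without saline replicate 2, and OTV minus ASO turned positive without ASO replicate 3. With pseudocounts of 0.1 and 10 CPM, 17 and 17 of the 30 leading genes were kept, and with 0.1 the median log2 fold of the ependymal list was 7.79 in place of 6.26; its 9 genes were higher under all alternatives run. The log2 ratio of MALAT1 between the ASO animal and the saline animals stayed negative, from -0.53 to -0.11. Nuclei of any cluster at or above the marker limit, and the lists without the pair from saline replicate 2, were chosen after seeing the data. Other tools, filters and normalizations for the fit of all genes between groups were not run, since that fit could not be, and a MALAT1 ratio without ASO replicate 3 cannot be formed. No paired analysis was possible because the labels link no animal of a group to an animal of another. Depth limits statements on genes such as TFRC, with 10 UMIs in the cluster.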

Other observations

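Lists of other pathways gave a mixed picture in the ependymal-like nuclei, read against the 11.7% of features that were higher and the 18.2% that were lower. All 11 myelin genes were lower, with a median log2 fold of -3.59. Of 12 ionotropic receptor genes 10 were lower, with a median of -2.97. GLRA2, a glycine receptor subunit, stood between the limits (log2 fold 0.85). GRIA1, an AMPA receptor subunit, was higher, at 453, 719 and 861 CPM in ASO replicate 3, saline replicate 1 and saline replicate 3 against 223 in other nuclei. Of 13 cholesterol synthesis genes 8 were lower and none higher. Among 9 antigen presentation genes 4 were higher and 2 lower. Of 8 tight junction genes 4 were lower and none higher, with TJP1, a scaffold of tight junctions, at 200, 222 and 219 CPM against 1002.

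Single animals also stood out in single genes of the lists. NTS, the neuropeptide neurotensin, was at 148 CPM in saline replicate 1, 3.89 in ASO replicate 3 and 0 in saline replicate 3. ATP10A, a phospholipid flippase, was at 235 CPM in saline replicate 3, against 13.6 in ASO replicate 3 and 22.8 in saline replicate 1. DIAPH3, an actin nucleator of the list for dividing cells, was at 107, 137 and 235 CPM against 17.0 in other nuclei, while TOP2A of the same list was at 1.94, 0 and 0 CPM.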
